A study of Mus musculus with 11 samples.

Results

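The genes described here encode the mitochondrial respiratory chain and ATP synthase. They are the rows of the expression table whose symbols start with Nduf, Uqcr, Atp5 or mt-, or match Cox4 to Cox8 with a letter or i after the digit, plus Sdha, Sdhb, Sdhc, Sdhd and Cyc1, without pseudogene and Gm symbols. The choice used symbols alone. It gave 108 of 19444 genes, of which 82 are nuclear and 26 are encoded by mitochondrial DNA. The nuclear genes comprise 38 complex I subunits, 8 complex I assembly factors, 4 genes of complex II, 1 of complex III, 14 of complex IV and 17 of ATP synthase. The mt- genes comprise 9 mRNA, 2 rRNA and 15 tRNA genes. Uqcr symbols, mt-Co2, mt-Atp6, mt-Atp8 and mt-Nd4l were not analysed here.

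Single cells came from stellate ganglia, the sympathetic ganglia at the base of the neck, of 6 male C57BL/6J mice aged 6 to 8 weeks. All had been injected 3 days earlier with retrograde tracers, CTB-555 into interscapular brown adipose tissue (iBAT) and CTB-488 into the forelimb, and there was no untreated group. The replicate is the set (n = 3), a pool of ganglia from 2 mice, and the 11 plates, 4 each for Sets 1 and 2 and 3 for Set 3, are technical. Which tracer a cell carried was not used here. Cells were compared by the authors' numbered clusters: cluster 4 (54 cells), cluster 3 (101), cluster 2 (335) and cluster 1 (388).

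Cluster 3 held cells of unlike depth, with none between 9804 and 18608 counts, and was split into 48 high-count and 53 low-count cells. Median counts per cell were 35488.5 in cluster 4, 68058 in high-count cluster 3, 40121 in cluster 2, 28396 in cluster 1 and 2658 in low-count cluster 3, and no doublet caller was run. Sympathetic neuron markers summed to 98.6 to 200 counts per 10000 across the sets of clusters 4, 2 and 1 and of high-count cluster 3. Genes of cholinergic sympathetic neurons summed to 60.9 to 69.8 in cluster 4, against 0.190 to 0.487 in clusters 2 and 1. Plates shared the same 96 well barcodes by design. Because the clusters were drawn from the same cells, a p-value here says only whether a difference was repeatable over sets.

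Complexes I to IV pass electrons from NADH and succinate to oxygen. Complexes I, III and IV pump protons out of the mitochondrial matrix, and ATP synthase (complex V) uses the returning protons to make ATP. Complex II is encoded by nuclear genes only. The other complexes combine nuclear and mitochondrial subunits, and mitochondrial DNA also encodes the rRNAs and tRNAs that translate its mRNAs. Both of its strands are transcribed as long precursors, and the light strand carries mt-Nd6 and a minority of the tRNA genes. Neurons draw most of their ATP from this pathway.

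Nuclear respiratory chain genes took the largest share of counts in cluster 4 in every set, then in cluster 2, then in cluster 1. Their share was 7.04%, 5.95% and 6.03% of all counts in cluster 4 of Sets 1, 2 and 3, against 6.09%, 5.36% and 5.43% in cluster 2 and 5.35%, 4.77% and 4.60% in cluster 1. The ratio of cluster 4 to cluster 1 was 1.29 ± 0.0387 (SD, n = 3 sets), and that of cluster 2 to cluster 1 was 1.15 ± 0.0301. The mt- genes followed another order. They took 2.49% ± 0.800 of counts in cluster 4, 1.98% ± 0.716 in cluster 2 and 2.02% ± 0.739 in cluster 1. The ratio of cluster 4 to cluster 1 within sets was 1.34, 1.15 and 1.25, whereas that of cluster 2 to cluster 1 was 1.01, 0.970 and 0.968. In high-count cluster 3 the nuclear share was 5.39% ± 0.603 and the mt- share 2.00% ± 0.617. Low-count cluster 3 had the smallest nuclear share, 3.47% ± 0.669, with an mt- share of 2.11% ± 0.674. Sets differed by more than clusters in the mt- share and by less in the nuclear share, as the plot of shares by class shows.

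**Figure D1:**
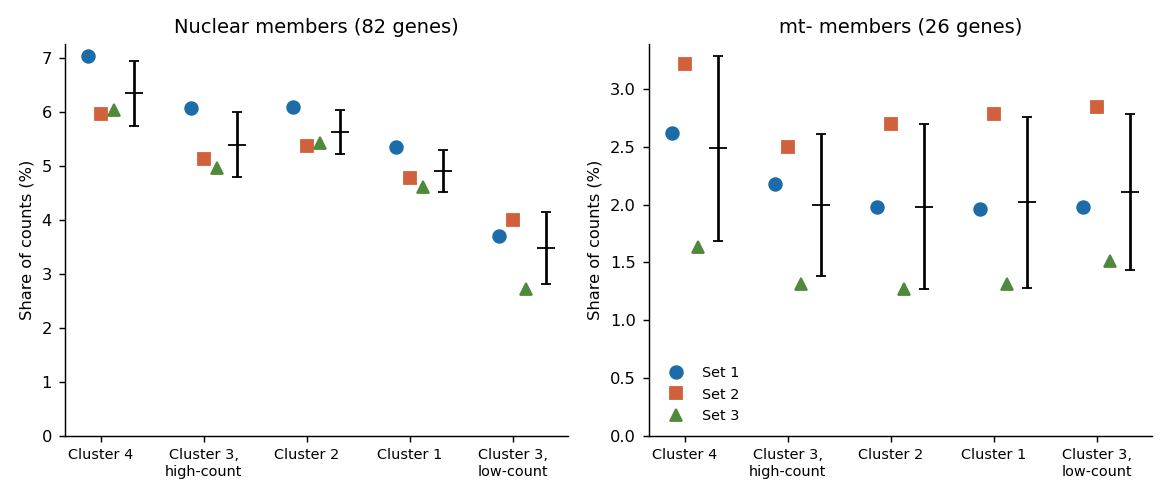
Share of all counts (percent, y axis) from nuclear members (left) and mt- members (right) in each class of cells; points are sets, and the bar is the mean ± SD over 3 sets. In the nuclear panel each set falls from cluster 4 through cluster 2 to cluster 1, and in the mt- panel Set 2 is highest and Set 3 lowest in every class.

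Individual genes were tested with limma, with the set as a block. The values were log2(1 + counts per 10000), averaged over the cells of a cluster in each set. Of the nuclear genes 78 passed the filter of 0.05 counts per 10000 and of the mt- genes 18. The nuclear genes left out were Atp5g2, Cox4i2, Cox6b2 and Ndufa4l2. Levels below are counts per 10000, as means over cells, then mean ± SD over the 3 sets, and differences are on the log2(1 + counts per 10000) scale with an adjusted p threshold of 0.05. For genes with low levels such differences are smaller than the ratio of the levels.

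In cluster 4 against cluster 1, 54 of 78 nuclear genes were higher and 1 was lower. The background was 11.9% of 10564 tested genes higher and 9.49% lower. The median difference of the nuclear genes was 0.24, against 0.01 over all genes tested. Against cluster 2, 34 were higher in cluster 4 and 1 lower, with a background of 9.13% higher and 10.9% lower and medians of 0.13 and -0.01. In cluster 2 against cluster 1, 25 were higher and 1 lower, with a background of 5.27% higher and 3.59% lower and medians of 0.11 and 0.01. With median-of-ratios size factors the split of calls over all genes in cluster 2 against cluster 1 was 413 higher and 480 lower, in place of 557 and 379, and 18 nuclear members were higher. Without the set as a block the nuclear genes called higher numbered 10, 0 and 0 in these comparisons. Over all 10564 genes, 512, 426 and 119 were then called higher. The nuclear count in cluster 4 against cluster 2 was 17 without Set 1, 21 without Set 2 and 26 without Set 3. Over all genes it was 705, 663 and 663, of 10648, 10423 and 10550 tested. In cluster 2 against cluster 1 the nuclear count was 14, 19 and 15, and 267, 217 and 318 over all genes. The means rose in the order of cluster 1, cluster 2 and cluster 4 for 58 of the 78 genes. The comparisons share clusters, so their calls are not independent. The calls by complex are plotted for the 3 comparisons.

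**Figure D2:**
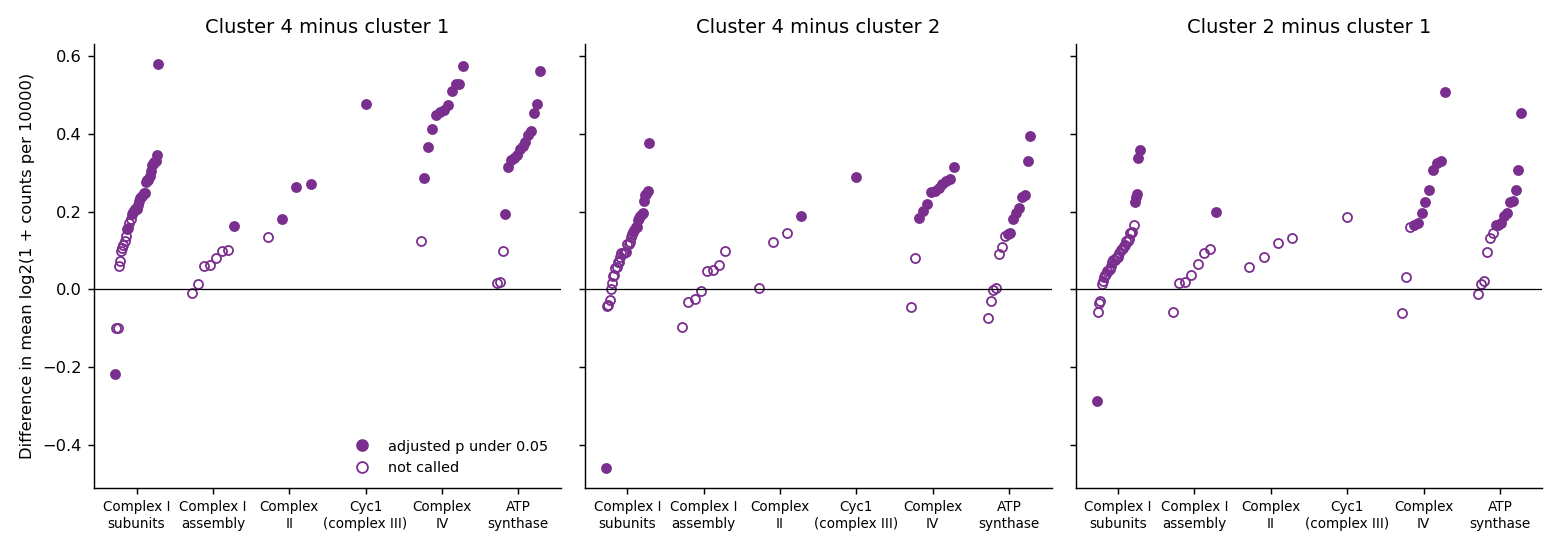
Difference in mean log2(1 + counts per 10000) for each tested nuclear member (points, y axis) by complex (x axis), in cluster 4 minus cluster 1 (left), cluster 4 minus cluster 2 (middle) and cluster 2 minus cluster 1 (right). Filled points have an adjusted p under 0.05; complex IV and ATP synthase members lie mostly above 0 in all panels, and Ndufs4 and Ndufv3 are the filled points below 0.

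Complex IV, cytochrome c oxidase, is the last enzyme of the chain and passes electrons to oxygen. Of its 12 tested nuclear genes 11 were higher in cluster 4 than in cluster 1, 10 higher in cluster 4 than in cluster 2, and 9 higher in cluster 2 than in cluster 1. Cox6b1, whose product faces the intermembrane space, had 31.0, 26.6 and 26.9 counts per 10000 in cluster 4 of Sets 1, 2 and 3, against 25.4, 21.7 and 22.0 in cluster 2 and 22.1, 18.5 and 17.9 in cluster 1. Every cluster 4 value was above every value of the other clusters. The difference from cluster 1 was 0.51 (SE 0.037, adjusted p = 8.17e-08) and that from cluster 2 was 0.29 (adjusted p = 4.94e-05). Cox8a, a small membrane subunit, had mean levels of 17.0 ± 2.51 in cluster 4, 14.2 ± 2.08 in cluster 2 and 11.2 ± 1.55 in cluster 1, a difference of 0.58 between cluster 4 and cluster 1 (adjusted p = 9.61e-08).

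Cox6c, another small subunit, showed its step between clusters 2 and 1. It had 17.4, 15.3 and 14.4 counts per 10000 in cluster 2 of Sets 1, 2 and 3, against 11.4, 11.5 and 9.53 in cluster 1, with no overlap and a difference of 0.51 (SE 0.044, adjusted p = 1.76e-06). Cluster 4 was at 16.8, 15.2 and 13.8, and its difference of -0.05 from cluster 2 did not pass. The other members of complex IV that did not pass in at least 1 of the comparisons were Cox5a, Cox7a1, Cox7a2l and Cox7c.

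Several complex IV subunits exist as isoforms. Cox4i1, the common form of subunit 4, had a mean of 25.5 ± 1.95 counts per 10000 in cluster 4, 21.2 ± 2.26 in cluster 2 and 18.4 ± 2.30 in cluster 1, and was higher in each comparison (adjusted p at most 0.00375). Cox7a2, the common form of subunit 7a, averaged 15.7 ± 1.87, 12.8 ± 1.71 and 10.6 ± 1.53 in clusters 4, 2 and 1 and was also higher in each comparison. Cox7a1, the form best known from heart, skeletal muscle and brown fat, had 0.577, 0.184 and 0.553 counts per 10000 in cluster 4 of Sets 1, 2 and 3, against 0.166, 0.158 and 0.237 in cluster 2 and 0.157, 0.128 and 0.203 in cluster 1. The Set 2 value of cluster 4 lay within the range of the other clusters. The difference was 0.29 from cluster 1 (adjusted p = 0.00421) and 0.25 from cluster 2 (adjusted p = 0.00958). Without Set 1 or Set 3 the adjusted p was 0.051 and 0.091 against cluster 1 and 0.11 and 0.13 against cluster 2. At least 1 count of Cox7a1 was present in 38 of 54 cluster 4 cells, 70.4% (95% Clopper-Pearson interval 56.4 to 82.0, counting error only), against 49.0% (43.5 to 54.4) in cluster 2 and 34.0% (29.3 to 39.0) in cluster 1, at the unequal depths given above. Cox7a2l, which takes part in joining complexes III and IV, was higher in cluster 4 than in cluster 2 by 0.18 (adjusted p = 0.0130) but not called against cluster 1 (0.12, adjusted p = 0.0846).

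ATP synthase consists of a catalytic head, a stalk and a proton-conducting ring in the inner membrane. Of its 16 tested genes 13 were higher in cluster 4 than in cluster 1, 9 higher in cluster 4 than in cluster 2, and 10 higher in cluster 2 than in cluster 1. None was lower. The genes not called between cluster 4 and cluster 1 were Atp5l, Atp5s and Atp5sl, and the last pair carry the prefix but do not encode core subunits. Atp5l was at 0.0369 to 0.115 counts per 10000 in all sets of clusters 4, 2 and 1, and 6 other annotated genes hold a near-identical stretch of it, so its level is uncertain.

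Atp5g1 encodes the ring subunit c, whose mature protein it shares with Atp5g2 and Atp5g3. It had 15.4, 13.2 and 12.2 counts per 10000 in cluster 4 of Sets 1, 2 and 3, against 11.4, 9.29 and 10.0 in cluster 2 and 9.68, 8.94 and 8.12 in cluster 1. The cluster 4 values did not overlap those of either other cluster. The difference was 0.56 from cluster 1 (adjusted p = 4.66e-07) and 0.39 from cluster 2 (adjusted p = 2.49e-05). Atp5g3, the second gene for the same subunit, differed from it in pattern, with 10.0 ± 2.44 in cluster 4, 10.2 ± 2.33 in cluster 2 and 8.57 ± 1.94 in cluster 1. It was higher than in cluster 1 both in cluster 4 (0.19, adjusted p = 0.00368) and in cluster 2 (0.22, adjusted p = 0.00254), and its difference of -0.03 between clusters 4 and 2 was not called. Atp5g2 stayed at or below 0.0967 in every set of these clusters and has a near-identical copy.

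Atp5b, the catalytic beta subunit, stood at 14.0 ± 0.437 counts per 10000 in cluster 4, 12.5 ± 0.901 in cluster 2 and 9.95 ± 0.904 in cluster 1, and was 0.31 higher in cluster 2 than in cluster 1 (adjusted p = 0.000344). Atp5o, the stalk subunit that ties the head to the membrane part, was 0.48 higher in cluster 4 than in cluster 1 (adjusted p = 1.70e-06) and 0.33 higher than in cluster 2 (adjusted p = 8.97e-05). Its step between clusters 2 and 1 was not called. Atp5e, the epsilon subunit of the central stalk, behaved like Cox6c in where its step lay. It had 12.9, 11.0 and 10.5 in cluster 2 of Sets 1, 2 and 3, against 9.31, 7.93 and 7.27 in cluster 1, a difference of 0.45 (adjusted p = 6.04e-06), and cluster 4 was at 11.5, 10.7 and 10.2.

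Complex I takes electrons from NADH and is the largest of the complexes. Of its 37 tested subunit genes 25 were higher and 1 lower in cluster 4 than in cluster 1, 13 were higher and 1 lower in cluster 4 than in cluster 2, and 5 were higher and 1 lower in cluster 2 than in cluster 1. Ndufa1, a small subunit of its membrane arm, had 12.6, 9.11 and 10.5 counts per 10000 in cluster 4 of Sets 1, 2 and 3, against 9.95, 7.98 and 8.49 in cluster 2 and 7.75, 5.98 and 6.75 in cluster 1. It was higher in each comparison, by 0.58 in cluster 4 against cluster 1 (adjusted p = 3.02e-07). Ndufa4, first counted with complex I and later assigned to complex IV, stood at 18.8 ± 1.71 in cluster 4, 14.3 ± 1.45 in cluster 2 and 14.6 ± 1.51 in cluster 1. Its difference was 0.35 in cluster 4 against cluster 1 and 0.38 against cluster 2, and -0.03 in cluster 2 against cluster 1, which was not called.

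A pair of complex I genes moved against the rest. Ndufs4, an accessory subunit needed late in assembly, had 2.28, 2.74 and 1.73 counts per 10000 in cluster 4 of Sets 1, 2 and 3, 2.17, 2.30 and 1.84 in cluster 2, and 3.01, 3.10 and 2.35 in cluster 1. It was lower than in cluster 1 by -0.22 in cluster 4 (adjusted p = 0.0109) and by -0.29 in cluster 2 (adjusted p = 0.00314). The adjusted p in cluster 4 was 0.092 without Set 1 and 0.076 without Set 3, and in cluster 2 it was 0.068 without Set 1 and 0.056 without Set 2. Ndufv3, an accessory subunit of the NADH-binding part, was high in cluster 2, with 8.12, 6.97 and 6.22 in cluster 4 of Sets 1, 2 and 3, against 11.0, 10.5 and 8.62 in cluster 2 and 8.55, 7.78 and 6.75 in cluster 1. It was lower in cluster 4 than in cluster 2 by -0.46 (adjusted p = 3.43e-06), higher in cluster 2 than in cluster 1 by 0.36 (adjusted p = 7.98e-05), and not called between clusters 4 and 1 (-0.10).

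Assembly factors of complex I help build the complex and leave it afterwards. Of the 8 Ndufaf genes 1 was higher in cluster 4 than in cluster 1, none was called in cluster 4 against cluster 2, and 1 was higher in cluster 2 than in cluster 1. With 11.9% and 5.27% of all genes higher in the comparisons with a call, 1 of 8 says nothing particular of these factors. The called genes were Ndufaf5 (0.16, adjusted p = 0.0323) and Ndufaf2 (0.20, adjusted p = 0.0458), and with cells thinned to 15000 counts the adjusted p was 0.59 and 0.21. Without Set 2 or Set 3 the adjusted p of Ndufaf5 was 0.21, and without Sets 1, 2 or 3 that of Ndufaf2 was 0.36, 0.18 and 0.10. The Ndufaf genes had a median difference of 0.07 in cluster 4 against cluster 1, whereas the complex I subunits had 0.21. On shares of counts, which do not shrink differences of low genes, the ratio of cluster 4 to cluster 1 was 1.13 ± 0.0321 for the assembly factors and 1.19 ± 0.0394 for the subunits, closer than those medians.

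Complex II, succinate dehydrogenase, also belongs to the tricarboxylic acid cycle. Of its 4 genes 3 were higher in cluster 4 than in cluster 1, namely Sdhb (0.27), Sdhc (0.18) and Sdhd (0.26), and Sdha was not called (0.13, adjusted p = 0.0718). Sdhb, the iron-sulphur subunit, was at 11.4 ± 0.994 counts per 10000 in cluster 4, 9.97 ± 1.26 in cluster 2 and 9.36 ± 1.04 in cluster 1, and was the gene of complex II called between clusters 4 and 2 (0.19, adjusted p = 0.00621). None of the 4 passed in cluster 2 against cluster 1, where the smallest unadjusted p was 0.0190, for Sdha. Cyc1, cytochrome c1 of complex III, had 4.94, 3.86 and 4.91 in cluster 4 of Sets 1, 2 and 3, against 3.41, 3.01 and 4.04 in cluster 2 and 2.79, 2.78 and 3.31 in cluster 1. It was higher in cluster 4 by 0.48 against cluster 1 (adjusted p = 1.34e-05) and by 0.29 against cluster 2 (adjusted p = 0.00156), and the 0.19 between clusters 2 and 1 missed the threshold (adjusted p = 0.0516).

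The genes called higher in all 3 comparisons numbered 14. They were Ndufa1, Cox4i1, Cox5b, Cox6a1, Cox6b1, Cox7a2, Cox7b, Cox8a, Atp5a1, Atp5b, Atp5g1, Atp5h, Atp5j and Atp5k. No gene of complex II and no assembly factor was among them, and 24 of the 82 genes, tested or not, were called in neither direction in any of the 3. Of the 25 genes higher in cluster 2 than in cluster 1, 23 were also among the 54 higher in cluster 4 than in cluster 1, a set of comparisons that share cluster 1.

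Markers of other cell types were compared beside these differences. The 10 glial markers summed to 11.5 to 19.4 counts per 10000 in cluster 4, 8.37 to 10.9 in cluster 2 and 7.35 to 8.81 in cluster 1, with none at 0. Without the 10% of cells with most glial counts in each set and cluster, 55 nuclear genes were higher in cluster 4 than cluster 1. Then 36 were higher in cluster 4 than in cluster 2, and 23 higher in cluster 2 than in cluster 1. Over all 10564 genes 1185, 882 and 501 were higher in these comparisons. The 4 brown adipocyte markers in the table summed to 1.84 to 2.38 in cluster 4, 0.856 to 1.12 in cluster 2 and 0.357 to 0.502 in cluster 1, with Fabp4 and Dio2 at 0 in cluster 4, and their part in the result was not tested. With each cell thinned to 15000 counts the nuclear genes called higher numbered 42, 24 and 19 in these comparisons. Over all 10564 genes 769, 669 and 253 were then higher, and cells under 15000 counts were left out.

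In high-count cells of cluster 3 few of these genes were called against cluster 2. Of 78 nuclear genes 2 were higher and 4 lower, with a background of 4.05% of 10525 genes higher and 2.37% lower, or 6.41% in either direction. Scaling summed counts to their total gave a split over all genes of 269 higher and 250 lower, in place of 426 and 249. Atp5g1 had 13.4, 11.1 and 11.9 counts per 10000 in high-count cluster 3 of Sets 1, 2 and 3, against 11.4, 9.29 and 10.0 in cluster 2, a difference of 0.26 (adjusted p = 0.00222). Ndufs8, an iron-sulphur subunit of complex I, was 0.21 higher (adjusted p = 0.0124). The lower genes were Cox6c (-0.21, adjusted p = 0.0111), Atp5e (-0.21, adjusted p = 0.0169), Ndufv3 (-0.18, adjusted p = 0.0316) and Ndufa1 (-0.18, adjusted p = 0.0476). All 4 were among the genes higher in cluster 2 than in cluster 1, and these comparisons share cluster 2. No mt- gene was called by limma, and 3 had an unadjusted p under 0.05, namely mt-Cytb, mt-Nd5 and mt-Rnr2. Thinning left no nuclear gene called higher and 2 called lower, against 119 and 116 over all genes.

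Promoters of the nuclear genes were searched for sites of 3 factors known to act on respiratory genes, as the 250 bases before and 50 after the annotated start (RefSeq, GRCm38.p6). A window was found for 67 of the 82 genes. The NRF-1 motif GCGCANGCG was present, on either strand, in 19 of them, or 28.4%, against 6.47% of 27025 annotated genes with such a window. The ETS motif CCGGAAG, as bound by GABP, was in 15 (22.4%, against 9.12%), and the YY1 motif AAGATGGC in 9 (13.4%, against 2.88%). Any of the 3 was in 36 (53.7%, against 16.5%). By complex, NRF-1 matches fell in 8 of 33 complex I subunits, 1 of 11 complex IV genes and 6 of 13 ATP synthase genes, and YY1 matches in 7, 0 and 1 of these. A match is a description of the letters, and binding was not measured.

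The windows of 3 genes that were higher in cluster 4 than in cluster 1 show the placement of these motifs. Capitals mark the matches: the YY1 motif after the start in Ndufa3 (chr7:3617123-3617422, plus strand), the ETS motif read on the opposite strand before the start in Cox6b1 (chr7:30626065-30626364, minus strand), and in Atp5k (chr5:108434350-108434649, minus strand) an NRF-1 palindrome that matches on both strands, followed by an ETS motif read on the opposite strand.
Ndufa3: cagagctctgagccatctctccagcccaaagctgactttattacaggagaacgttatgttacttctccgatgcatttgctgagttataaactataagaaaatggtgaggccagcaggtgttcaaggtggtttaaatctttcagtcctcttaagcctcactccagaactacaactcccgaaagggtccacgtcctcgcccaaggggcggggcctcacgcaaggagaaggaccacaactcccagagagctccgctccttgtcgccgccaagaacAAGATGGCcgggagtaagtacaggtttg
Cox6b1: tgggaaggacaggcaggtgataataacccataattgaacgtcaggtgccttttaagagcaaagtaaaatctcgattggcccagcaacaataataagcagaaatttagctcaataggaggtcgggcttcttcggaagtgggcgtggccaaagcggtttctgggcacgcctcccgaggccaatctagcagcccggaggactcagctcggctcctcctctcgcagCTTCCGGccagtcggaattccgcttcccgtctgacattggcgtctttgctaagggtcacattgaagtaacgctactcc
Atp5k: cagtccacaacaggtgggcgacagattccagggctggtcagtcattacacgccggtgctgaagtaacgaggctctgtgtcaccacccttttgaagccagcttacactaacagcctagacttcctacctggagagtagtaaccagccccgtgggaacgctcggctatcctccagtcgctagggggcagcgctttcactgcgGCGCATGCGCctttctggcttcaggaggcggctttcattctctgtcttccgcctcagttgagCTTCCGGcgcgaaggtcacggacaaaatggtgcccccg

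The regulators of mitochondrial gene expression were low in all neurons. Ppargc1b, a coactivator of NRF-1 and of oestrogen-related receptors, had 0.138, 0.266 and 0.154 counts per 10000 in cluster 4 of Sets 1, 2 and 3, against 0.0843, 0.137 and 0.0604 in cluster 2 and 0.0506, 0.0518 and 0.0573 in cluster 1. It was higher in cluster 4 than in cluster 1 by 0.15 (adjusted p = 0.00123) and than in cluster 2 by 0.10 (adjusted p = 0.0223). Nrf1, Gabpa, Esrra and Tfam were not called in any comparison, with mean levels of 0.0385 to 0.151 in clusters 4, 2 and 1, and Ppargc1a was below the filter. Ppara, a nuclear receptor named here after its values were seen, was lower in cluster 4 than in cluster 2 by -0.14 (adjusted p = 0.000304). Its level was also called higher in cluster 2 than in cluster 1, by 0.08 (limma, adjusted p = 0.0213). Of 16 tested genes for transcription and replication of mitochondrial DNA none was called by limma between these clusters, and the smallest adjusted p was 0.0657.

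In cluster 4 against cluster 1, neighbouring pathways gave smaller shares of calls than the nuclear respiratory genes. There, 9 of 19 tricarboxylic acid cycle genes were higher and none lower, led by Suclg1 (0.32) and Mdh2 (0.25). Of 76 mitochondrial ribosome genes 13 were higher and 1 lower, and of 24 import genes 9 were higher and none lower. Over all genes 11.9% were higher and 9.49% lower, and the share of ribosome genes called higher was near that background. Of 16 glycolysis genes 5 were higher and 3 lower, with Eno2, the neuronal enolase, at 0.53 and Pfkp, a phosphofructokinase, at -0.65. Of 30 assembly factors of complexes II to V, 4 were higher and 3 lower, both shares near that background. Atpaf2, which assembles the head of ATP synthase, was at -0.46 (adjusted p = 4.60e-05). Among 10 genes of adenine nucleotide and phosphate exchange 4 were higher and 1 lower, with the phosphate carrier Slc25a3 at 0.45 and the ADP/ATP carrier Slc25a5 at 0.50. Of 18 electron carrier genes 2 were higher and none lower, and Cycs, cytochrome c, was at 0.31. The share of carriers called higher was also near that background, and their median difference was -0.0079. In cluster 4 against cluster 2 the higher and lower genes numbered 4 and 0 in the cycle, 6 and 1 in the ribosome and 0 and 1 in import. In cluster 2 against cluster 1 they numbered 0 and 0, 2 and 0, and 4 and 0. Glycolysis had 4 higher and 2 lower of its 16 genes there, where the nuclear respiratory genes had 25 higher and 1 lower of 78. Its share of calls in either direction was no smaller than theirs, but its share of higher calls was smaller. The ribosome's higher calls in these comparisons were no larger a share than the 9.13% and 5.27% over all genes. In cluster 4 against cluster 1 the medians were 0.18 for the cycle, 0.06 for the ribosome and 0.09 for import. Those of the nuclear respiratory genes and of all genes were 0.24 and 0.01.

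The mt- genes differed by kind of transcript. Both rRNAs and 4 of 8 tested mRNAs were higher in cluster 4 than in cluster 1, whereas 2 mRNAs and 1 of 8 tested tRNAs were lower. Against cluster 2, both rRNAs and 5 mRNAs were higher in cluster 4 and none was lower. In cluster 2 against cluster 1, the one call was mt-Rnr1. The median difference of the 18 tested mt- genes was 0.04, 0.10 and -0.05 in these comparisons, against 0.01, -0.01 and 0.01 over all genes, and the backgrounds are those given above. The plot of the mt- genes sets these differences side by side.

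**Figure D3:**
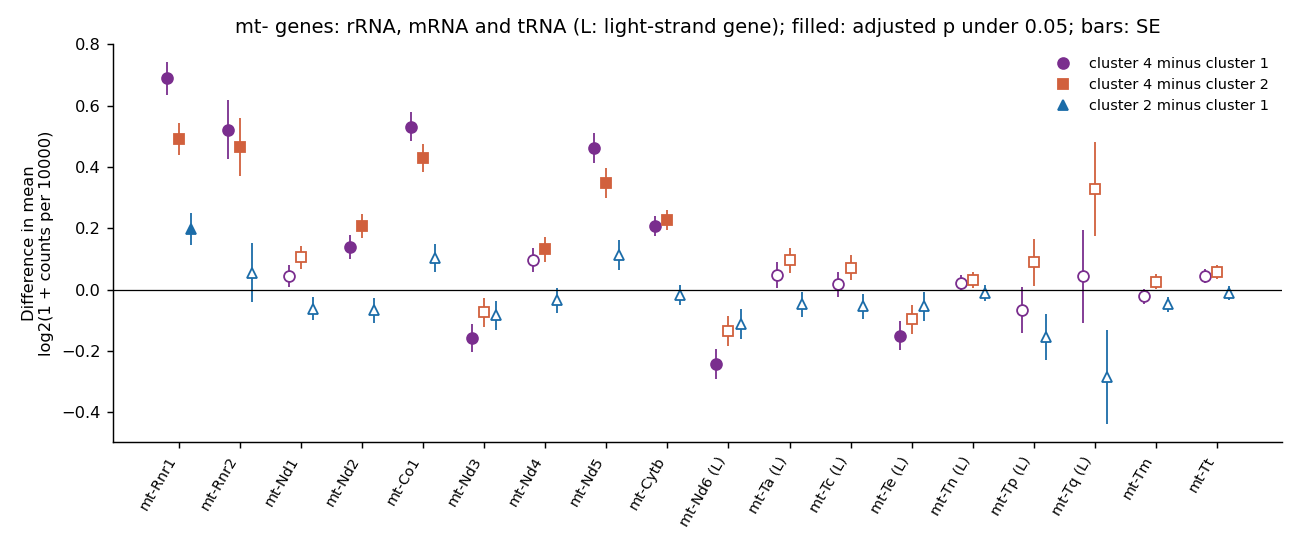
Difference in mean log2(1 + counts per 10000) (y axis) for the 18 tested mt- genes (x axis), with SE bars; circles are cluster 4 minus cluster 1, squares cluster 4 minus cluster 2 and triangles cluster 2 minus cluster 1, filled where the adjusted p was under 0.05. Both rRNAs, mt-Co1 and mt-Nd5 stand highest in the cluster 4 comparisons, from 0.35 to 0.69, and the light-strand genes marked L show no filled point above 0.

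The small-subunit rRNA mt-Rnr1 had 8.86, 10.8 and 4.62 counts per 10000 in cluster 4 of Sets 1, 2 and 3, against 4.73, 8.31 and 2.52 in cluster 2 and 3.93, 6.42 and 2.19 in cluster 1. Set values of the clusters overlapped, but within each set cluster 4 was highest. The difference was 0.69 from cluster 1 (SE 0.053, adjusted p = 1.49e-07) and 0.49 from cluster 2 (adjusted p = 7.63e-06). Between clusters 2 and 1 it was 0.20 (adjusted p = 0.0290), and the adjusted p was 0.26 without Set 1 and 0.30 without Set 2. The large-subunit rRNA mt-Rnr2 had 35.5, 55.3 and 25.0 in cluster 4, against 28.5, 46.9 and 14.8 in cluster 2 and 25.3, 41.7 and 13.8 in cluster 1, and was higher in cluster 4 by 0.52 (adjusted p = 0.00537) and 0.47 (adjusted p = 0.00991).

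Among the mRNAs, mt-Co1, the catalytic subunit of complex IV, had 27.2, 22.5 and 11.6 counts per 10000 in cluster 4 of Sets 1, 2 and 3, against 20.1, 14.4 and 8.64 in cluster 2 and 18.6, 13.4 and 8.03 in cluster 1. It was 0.53 higher than in cluster 1 (adjusted p = 6.20e-07) and 0.43 higher than in cluster 2 (adjusted p = 7.89e-06). The complex I subunit mt-Nd5 was 0.46 and 0.35 higher, mt-Cytb of complex III 0.21 and 0.23 higher, and mt-Nd2 0.14 and 0.21 higher in cluster 4. For mt-Nd4 the call was against cluster 2 (0.13, adjusted p = 0.0309), and mt-Nd1 was called in neither.

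The lower genes in cluster 4 against cluster 1 were mt-Nd6 (-0.24, adjusted p = 0.00202), mt-Nd3 (-0.16, adjusted p = 0.0256) and mt-Te (-0.15, adjusted p = 0.0341). The mt-Nd6 and mt-Te genes lie side by side on the light strand. The values of mt-Nd6 were 7.94, 11.8 and 4.67 in cluster 4 of Sets 1, 2 and 3, against 8.38, 13.7 and 5.98 in cluster 1, lower within each set. Without the 10% most glial cells the adjusted p of mt-Nd6 was 0.10, and 0.19 when summed counts were scaled to their total, and that of mt-Te was 0.10 and 0.056. The mt-Nd3 difference was -0.08 with thinned cells (adjusted p = 0.45). Without Set 2 or Set 3 the adjusted p of mt-Nd3 was 0.18 and 0.13, and that of mt-Te was 0.084, 0.19 and 0.11 without Sets 1, 2 and 3.

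Among tRNA genes, which are 59 to 75 bases long, most counts fell on the light strand. The 6 light-strand tRNA genes together took 0.0919% ± 0.0368 of counts in cluster 4, 0.0711% ± 0.0228 in cluster 2 and 0.0937% ± 0.0387 in cluster 1. The 9 heavy-strand tRNA genes took 0.00363% ± 0.00181, 0.00231% ± 0.00108 and 0.00313% ± 0.00150. The light-strand sum was led by mt-Tq, for glutamine, at 6.84 ± 3.30 counts per 10000 in cluster 4, 5.22 ± 1.79 in cluster 2 and 6.89 ± 3.16 in cluster 1, with no difference called. The next were mt-Tp, for proline, and mt-Te, for glutamate. These 3 genes are shown as the tRNA genes with the highest levels, read 5′ to 3′ on the minus strand of GRCm38 at chrM:3772-3842, chrM:15356-15422 and chrM:14071-14139, with the anticodon in capitals.
mt-Tq: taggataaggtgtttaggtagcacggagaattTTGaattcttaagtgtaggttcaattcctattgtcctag
mt-Tp: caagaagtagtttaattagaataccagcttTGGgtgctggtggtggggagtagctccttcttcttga
mt-Te: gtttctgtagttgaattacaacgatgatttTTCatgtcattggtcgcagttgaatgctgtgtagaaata

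No source used here states whether counting used strand. Reads from mt-Nd5 and mt-Nd6, whose genes overlap by 14 bases on opposite strands, or from mt-Tq and mt-Ti, which overlap by 3, cannot then be told apart where they overlap. Nor can light-strand tRNA, or mt-Nd6 over its whole length, be told apart from antisense reads of heavy-strand precursors. The lower calls of mt-Nd6 and mt-Te given above carry the same limit.

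Near-identical copies limit several levels. Of the 108 genes 16 were found to share a stretch of at least 100 bases at 98% identity or more with another annotated gene, 12 of them nuclear and 4 mt- genes. For nuclear genes only the last 400 bases of a transcript were searched. Matches on either strand counted, and genes that overlap at the same locus were not removed, so a match need not be a copy. The extreme case was mt-Co3, a core subunit of complex IV, which was at 0 in the 3 sets of cluster 4 and in 2 of 3 sets of clusters 2 and 1, with at most 0.00479 counts per 10000. Gm28437, a copy identical over 783 bases, had 6.46, 15.7 and 5.78 in cluster 4 of Sets 1, 2 and 3, against 5.08, 13.1 and 4.98 in cluster 2 and 4.66, 14.7 and 5.46 in cluster 1. The copies of mt-Co1, mt-Nd3 and mt-Nd4 stayed at or below 0.265 in these clusters. Among nuclear genes, the copy of Atp5h, Gm10250, was at 2.27 to 5.03 in these clusters, so the level of Atp5h is uncertain too.

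Sets differed in both groups of genes, and in different ways. Averaged over clusters 1 and 2, the mt- share per plate was 2.57% to 2.83% in Set 2, 1.84% to 2.14% in Set 1 and 1.26% to 1.31% in Set 3, with no overlap between sets. The ratio of Set 2 to Set 3 was 2.13 for all mt- genes, 3.08 for the rRNAs, 1.96 for the heavy-strand mRNAs and 2.33 for the light-strand genes. The nuclear share per plate was highest in Set 1, at 5.53% to 5.95%, against 4.90% to 5.24% in Set 2 and 4.99% to 5.05% in Set 3. A set is 1 pool of 2 mice with its own plates, so mice, dissection and library cannot be told apart and no test was made. The plates fall into groups by set in the plot of the 2 shares.

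**Figure D4:**
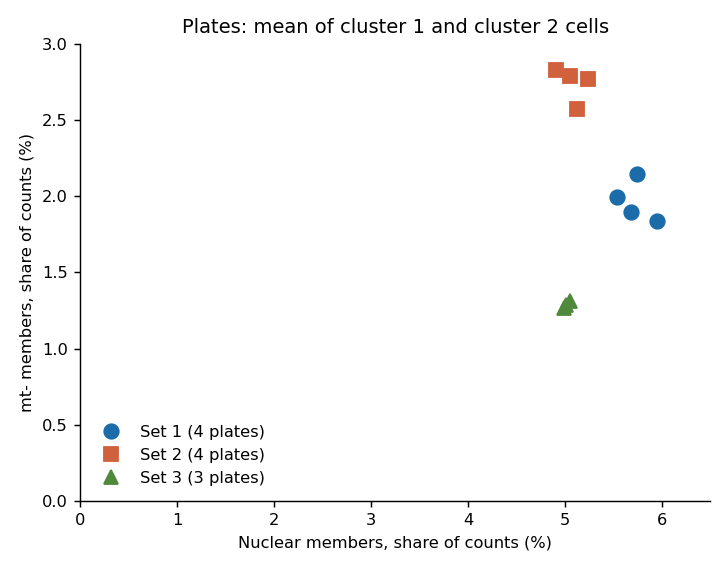
Share of counts from nuclear members (x axis, percent) and mt- members (y axis, percent) for each of 11 plates, as the mean of cluster 1 and cluster 2 cells. Set 2 plates lie at the top, Set 1 plates to the right and Set 3 plates at the bottom, and the mt- ranges of the sets do not overlap.

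Gene by gene, all Set 1 plates were above all Set 3 plates for 42 of 78 nuclear genes and below them for 6, against a background of 12.2% and 20.3% of 10421 genes. In Set 2 against Set 1, 2 genes were above (Atp5a1 and Atp5b) and 45 below, with a background of 12.4% and 6.7%. In Set 2 against Set 3, 20 were above and 26 below, with a background of 18.5% and 17.8%. Of 19 mt- genes 12 were above and 1 (mt-Te) below in Set 1 against Set 3, 10 above and 1 below in Set 2 against Set 1, and 16 above and none below in Set 2 against Set 3. The one below in Set 2 against Set 1 was mt-Co1, with 12.2 to 15.1 counts per 10000 in Set 2 plates and 18.1 to 21.3 in Set 1 plates, and 6.62 to 9.54 in Set 3 plates. Its order over the sets was thus unlike that of mt-Cytb, with 57.5 to 64.2, 42.6 to 50.7 and 39.1 to 44.0 in Sets 2, 1 and 3.

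Among the 6 nuclear genes with all Set 1 plates below all Set 3 plates were Ndufv1 and Sdha. Ndufv1, which binds NADH in complex I, had 1.97 to 2.22 counts per 10000 in Set 1 plates, against 3.20 to 3.38 in Set 3 plates. Sdha, the flavin subunit of complex II, had 1.62 to 2.13, against 2.78 to 3.14. Their longest coding transcripts were longer than those of the genes that were higher, with a median of 2167.5 bases for the 6, against 727.5 for the 42. Over 77 nuclear genes with a length, Spearman's rho between length and the Set 1 minus Set 3 difference was -0.52, as a description across genes that share libraries. Over 9102 other genes it was 0.17, of the opposite sign. For Set 2 minus Set 1 rho was 0.37 in the members and 0.48 in other genes, of the same sign. For Set 2 minus Set 3 it was -0.19 and 0.42. Between clusters the members had rho of -0.29 in cluster 4 minus cluster 1 and -0.09 in cluster 4 minus cluster 2. It was -0.24 in cluster 2 minus cluster 1 and 0.41 in high-count cluster 3 minus cluster 2. Other genes under 1000 bases had a median Set 1 minus Set 3 difference of 0.10 (452 genes), against -0.01 for 8650 longer ones. Between clusters 4 and 1 these medians were 0.02 and 0.0038. Lengths and set differences are plotted for the nuclear genes.

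**Figure D5:**
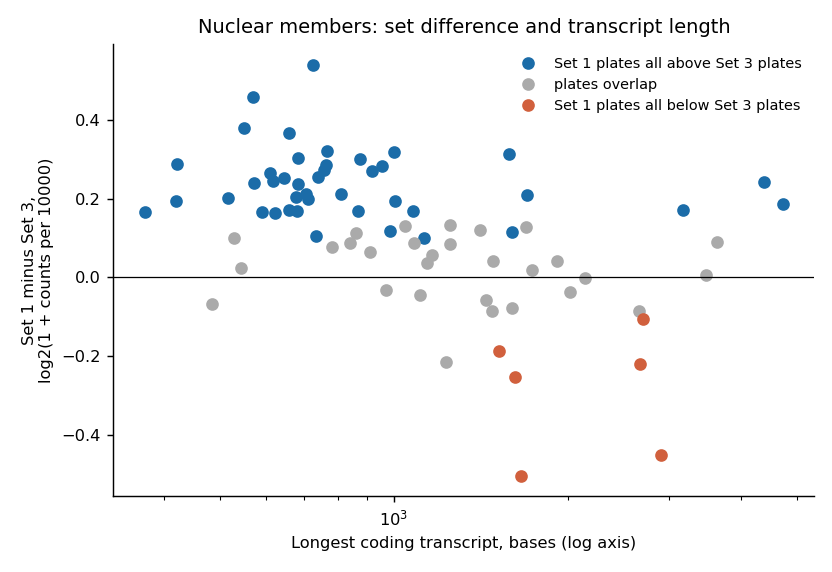
Set 1 minus Set 3 difference in log2(1 + counts per 10000), averaged over plates (y axis), against the length of the longest coding transcript (x axis, log scale) for each nuclear member. Blue points, where all Set 1 plates are above all Set 3 plates, have a median of 727.5 bases, and the 6 red points, where all are below, have a median of 2167.5.

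The relation between the nuclear and mt- shares was described across the cells of each set and cluster. Spearman's rho was 0.33 to 0.75 in cluster 4 (12 to 24 cells), -0.04 to 0.15 in cluster 2 (86 to 137 cells) and 0.05 to 0.40 in cluster 1 (92 to 156 cells). The ranges of clusters 4 and 1 overlapped, and in Set 3 rho was 0.33 in cluster 4 and 0.40 in cluster 1. These cells share plates, and both shares also moved with counts per cell, with rho of up to 0.64 for the nuclear and 0.71 for the mt- share in cluster 4 of Set 1. The lower and upper quartiles of the nuclear share over cells were 5.72% and 6.68% in cluster 4, 5.25% and 6.01% in cluster 2, and 4.62% and 5.30% in cluster 1.

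Low-count cells of cluster 3 were described without a test. Their endothelial markers summed to 15.2 to 52.9 counts per 10000, against 1.01 to 1.38 in cluster 2, and mural markers to 24.9, 2.40 and 31.3 in Sets 1, 2 and 3, against 0.207 to 0.334. Sympathetic neuron markers were at 26.3 to 85.3, so these 53 cells were given no cell type. The mt- rRNAs took 0.865% ± 0.283 of their counts, against 0.341% ± 0.182 in cluster 2, with ratios of 2.19, 2.26 and 4.15 in the 3 sets. The ratio for heavy-strand mRNAs was 0.798, 0.796 and 0.797. Cox4i2, an isoform of subunit 4 known from lung and from pericytes, had 2.13, 0.0894 and 1.35 counts per 10000 in Sets 1, 2 and 3, against 0.00782, 0.00804 and 0.0139 in cluster 2. It was high in Sets 1 and 3, where mural markers were high. Endothelial markers were at 52.1, 15.2 and 52.9 in Sets 1, 2 and 3 and brown adipocyte markers at 6.23, 0.165 and 10.7, also high in Sets 1 and 3. Fibroblast markers were at 32.2, 44.1 and 0.373 and glial markers at 4.47, 24.9 and 4.51, and the part of any of these in it was not tested. At least 1 count of Cox4i2 was present in 9 of 53 low-count cells, 17.0% (interval 8.07 to 29.8), against 12 of 335 cluster 2 cells, 3.58% (1.86 to 6.17), although cluster 2 cells were deeper. The share was also 7 of 54 cells in cluster 4 and 9 of 48 in high-count cluster 3, where levels were at most 0.0694. Ndufa4l2, a relative of Ndufa4, had counts in 3 of the low-count cells, all in Set 1, and in 1 cell each of clusters 2 and 1. In cluster 4 it was seen in 0 of 54 cells, for which the exact interval of the share of cells with a count reaches 6.60%. That limits cells with a count, not cells that express the gene.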

How the data were processed

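Single cells of mouse stellate ganglion were sequenced from 3′ ends on plates, per the labels' protocols. The deposited expression values are natural log (ln), as ln(1 + counts per 10000 counts of the cell), and the authors also deposited cluster numbers. The submitters' processing notes name the tools SAMtools 1.4.1, featureCounts 1.5.3, STAR 2.5.3a and Seurat and the build GRCm38. Inverting the log gave numbers within 0.001 of whole counts for 100% of non-zero values, a total of 30518080, with 2050165 to 3373157 per plate. Intervals cover counting error only.

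Members and lists were chosen with earlier results of these data known. Named genes are every mt- gene, the 2 members of smallest p in each complex and comparison, the isoforms, calls against the main direction, and 6 regulators. Any other gene was named after its values were seen, or to complete a list.

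The test was limma 3.58.1 in R 4.3.3 (trend, robust, two-sided) on means per set and cluster, set as block, Benjamini-Hochberg over all genes with a mean of at least 0.05 counts per 10000. Clusters 4, 2 and 1 were fitted together, and high-count cluster 3 (10000 counts or more) was added in a second fit. The test was also run on cluster 1 cells split at random within each set, with counts of chosen genes thinned. Such a split holds no cluster difference that varies by set, so it cannot show how the test handles that. Sets are pools of separate mice. Deviations of clusters of the same set from their means correlated at 0.555 to 0.866, so the block was kept. Different sets gave -0.720 to 0.00171, but removing each cluster's mean over sets makes such values lean negative, so they add nothing separate. Alternatives were median-of-ratios size factors, summed counts scaled to the total (chosen after seeing the data), totals without mt- genes, thinning, no block, no filter, a pseudocount of 0.1, leaving out each set, and leaving out the most glial cells.

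Positions and lengths come from GENCODE M21, which held 107 of 108 symbols. Copies were sought with BLAST 2.17.0. Shares use summed counts. Other steps used scipy 1.17.1, pandas 2.3.3, numpy 2.4.6 and matplotlib 3.10.9 in Python 3.11.15. The deposited sort record was not used. Lymphocyte markers were not analysed here. The name of 1 member is not reported here.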

Additional observations from a re-analysis of the deposited data

Results flagged for a closer look

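Among the 4 plates of Set 2, one stood apart in the share of counts that cluster 2 cells gave to heavy-strand mt- mRNA. That plate was at 1.80% and lay below the other 3 plates by more than the Dixon test for a single outlying value allows. Chance alone marks about 1 in 20 such groups, and Set 3, with 3 plates, was too small for this test.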

How the results depend on the processing

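Most calls needed the set as a block. With no replicate block, the nuclear genes called higher numbered 10 in cluster 4 against cluster 1 and 0 in cluster 4 against cluster 2, in cluster 2 against cluster 1 and in high-count cluster 3 against cluster 2. Nuclear genes called lower were 0 in all 4 comparisons, mt- genes called higher 0 in all of them, and mt- genes called lower 0 in cluster 4 against cluster 1. Over all genes, the higher calls without the block were 512, 426, 119 and 66 in these 4 comparisons, in the order named. The lower calls over all genes were 408, 405, 163 and 39. All other counts given here pair clusters by set.

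With a set left out, the nuclear genes called higher were 42 to 46 in cluster 4 against cluster 1, 17 to 26 in cluster 4 against cluster 2, 14 to 19 in cluster 2 against cluster 1 and 1 to 2 in high-count cluster 3 against cluster 2. Over all genes the higher calls numbered 826 to 866, 663 to 705, 217 to 318 and 143 to 230 in these comparisons. Nuclear genes called lower were 0 to 1 each in cluster 4 and cluster 2 against cluster 1 and in high-count cluster 3. Over all genes the lower calls there numbered 647 to 653, 206 to 250 and 97 to 151. The mt- genes called higher were 0 to 1 in cluster 2 against cluster 1, and those called lower 1 to 2 in cluster 4 against cluster 1, 0 to 1 in cluster 2 against cluster 1 and 0 to 1 in high-count cluster 3.

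The call of mt-Rnr1 in cluster 2 against cluster 1 left 0 mt- genes higher with median-of-ratios size factors, summed counts scaled to the total, thinning and no filter. The mt- genes lower in cluster 4 against cluster 1 fell to 1 with summed counts scaled to the total, with no filter and without the most glial cells, against 3. In cluster 4 against cluster 2, 1 mt- gene was lower with thinning and with the pseudocount of 0.1, against 0. In high-count cluster 3 against cluster 2, nuclear genes higher were 1 with median-of-ratios size factors, with summed counts scaled to the total and with no filter, and 0 with thinning, against 2. Nuclear genes lower were 1 with median-of-ratios size factors, 2 with thinning and 0 with no filter, against 4. Over all genes the higher calls with these settings were 263, 269, 154 and 119, against 426. The lower calls over all genes were 226, 116 and 116, against 249, with 19416 genes tested when no filter was used. The cause was not tested. The pseudocount of 0.1 moved the median over all genes to 0.10 in cluster 2 against cluster 1 and 0.13 in high-count cluster 3 against cluster 2.

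Of 753 alternative values for the 68 called differences of named genes, 592 kept their call, 161 lost it and 0 changed direction, and 60 of the 68 lost it without the block. Depth limits the description of low-count cluster 3, of Cox4i2 and Ndufa4l2, and of the mt- tRNA genes below the filter. Cluster 4 had 12, 24 and 18 cells in Sets 1, 2 and 3, which limits its means.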
